A study of Mus musculus with 9 samples.

Results

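Taar6, Taar7a, Taar7b, Taar7d, Taar7e and Taar7f form the middle of the mouse Taar cluster. They were taken by name from the count table, and all 6 of them were found among its 24421 gene rows. RNA was sequenced from whole main olfactory epithelium (MOE), the odor-sensing lining of the nasal cavity. The mice were of 1 established line in which genome editing had removed TAAR enhancer 1, an element that lies between Taar1 and Taar2 and is not itself part of a gene. The 9 libraries comprised 3 wild-type mice (WT), 3 mice with the deletion on one chromosome (het) and 3 mice with the deletion on both (homo), which the study describes as littermates. All were labelled as C57BL/6 mice of age P14 (postnatal day 14). A mixed C57BL/6J and 129 background and an older age are given for this line in the reporting summary of the study, and which applies to these libraries was not settled. All 9 mice kept the other known element of the cluster, TAAR enhancer 2, which the study places between Taar6 and Taar7a.

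Trace amine-associated receptors (TAARs) are G protein-coupled receptors. All but Taar1 serve in the nose, where they detect volatile amines such as those in urine and decaying tissue. A mature olfactory sensory neuron (OSN) expresses a single olfactory receptor gene from one of its alleles, so the RNA level of a receptor in whole tissue follows both the number of neurons that chose it and the RNA in each of them. Fewer cells of a type and less RNA per cell cannot be told apart in these bulk libraries. The Taar7 genes are recent duplicates of each other.

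The 6 genes lie on chromosome 10 of GRCm38 between positions 23984609 and 24050586, a span of 66.0 kb. In order from the deleted side, they are Taar6 (chr10:23984609-23985646, minus strand), Taar7a (chr10:23992405-23993481, minus strand), Taar7b (chr10:23999939-24001015, plus strand), Taar7d (chr10:24027222-24028298, plus strand), Taar7e (chr10:24037614-24038690, plus strand) and Taar7f (chr10:24049510-24050586, plus strand). Each is annotated as 1 exon that holds only coding sequence, 1038 bases in Taar6 and 1077 bases in each Taar7 gene. The pseudogene Taar7c-ps lies between Taar7b and Taar7d. The enhancer was removed from the 17.1 kb between Taar1 and Taar2, and the members begin between 46.0 kb (Taar6) and 110.9 kb (Taar7f) beyond the start of Taar2.

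The 300 bases around the start codon of each gene are shown because the members differ in how alike they are just outside their coding sequence. They were taken from RefSeq for GRCm38.p6 and are written 5′ to 3′ on the strand of the gene. The lower-case letters are the 250 bases before the start codon, and the capitals mark the first 50 coding bases, beginning with ATG. All 6 genes matched an entry.
Taar6, chr10:23985597-23985896, minus strand: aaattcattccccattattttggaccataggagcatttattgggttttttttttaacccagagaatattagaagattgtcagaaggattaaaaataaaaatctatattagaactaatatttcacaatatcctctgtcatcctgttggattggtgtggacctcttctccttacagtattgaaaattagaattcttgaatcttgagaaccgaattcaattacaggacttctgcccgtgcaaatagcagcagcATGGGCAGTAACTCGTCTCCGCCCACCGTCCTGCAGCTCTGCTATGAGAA
Taar7a, chr10:23993432-23993731, minus strand: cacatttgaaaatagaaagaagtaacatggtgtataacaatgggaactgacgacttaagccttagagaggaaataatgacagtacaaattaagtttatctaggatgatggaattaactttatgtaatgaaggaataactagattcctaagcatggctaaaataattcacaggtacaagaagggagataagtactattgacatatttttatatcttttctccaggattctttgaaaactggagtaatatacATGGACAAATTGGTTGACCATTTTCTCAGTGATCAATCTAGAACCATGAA
Taar7b, chr10:23999689-23999988, plus strand: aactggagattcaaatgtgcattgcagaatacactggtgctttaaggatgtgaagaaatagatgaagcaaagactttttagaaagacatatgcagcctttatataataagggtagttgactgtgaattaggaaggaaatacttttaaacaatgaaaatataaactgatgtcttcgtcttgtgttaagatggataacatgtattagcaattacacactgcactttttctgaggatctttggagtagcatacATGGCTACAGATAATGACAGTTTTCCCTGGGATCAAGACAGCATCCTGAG
Taar7d, chr10:24026972-24027271, plus strand: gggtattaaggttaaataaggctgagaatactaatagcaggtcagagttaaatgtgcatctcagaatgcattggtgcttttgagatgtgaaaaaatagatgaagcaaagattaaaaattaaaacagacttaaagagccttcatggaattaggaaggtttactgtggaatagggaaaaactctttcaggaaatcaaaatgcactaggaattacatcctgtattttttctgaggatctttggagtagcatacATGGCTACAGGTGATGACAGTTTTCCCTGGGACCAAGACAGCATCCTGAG
Taar7e, chr10:24037364-24037663, plus strand: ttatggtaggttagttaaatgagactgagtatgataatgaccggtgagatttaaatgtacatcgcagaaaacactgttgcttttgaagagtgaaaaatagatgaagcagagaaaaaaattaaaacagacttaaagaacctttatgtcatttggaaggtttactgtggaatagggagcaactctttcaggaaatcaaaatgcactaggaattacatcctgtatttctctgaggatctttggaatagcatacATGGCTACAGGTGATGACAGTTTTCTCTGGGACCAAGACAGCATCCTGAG
Taar7f, chr10:24049260-24049559, plus strand: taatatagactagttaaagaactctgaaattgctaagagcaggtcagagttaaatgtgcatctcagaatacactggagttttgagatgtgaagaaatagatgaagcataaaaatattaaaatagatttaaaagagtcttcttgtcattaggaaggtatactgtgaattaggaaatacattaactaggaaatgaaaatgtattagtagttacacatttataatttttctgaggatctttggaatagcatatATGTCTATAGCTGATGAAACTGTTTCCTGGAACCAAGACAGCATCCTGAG

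In the 250 bases before the start codon, Taar7d and Taar7e were the closest pair, identical at 83.4% of aligned positions. Taar7d and Taar7f were identical at 78.5% and Taar7e and Taar7f at 73.7%. Taar7b matched these 3 genes at 55.1 to 59.2% of positions, and Taar7a matched the other Taar7 genes at 50.2 to 53.2%. Taar6, which is not a Taar7 gene, matched them at 47.6 to 48.9%, little below Taar7a. The annotated starts are start codons, so these windows need not contain the true start of transcription. The motif TAATTA, searched on both strands, was in 0 of the 6 windows and in 5.29% of 32851 RefSeq windows of the same length. CCCNNGGG, which reads the same on both strands, was in 0 of the 6 and in 13.7% of all windows. The looser TAATNA, which includes TAATTA, was in the windows of Taar7a, Taar7b, Taar7e and Taar7f and in 26.5% of all windows.

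The coding sequences are much more alike, which bears on every value that follows. The 5 Taar7 genes were identical to one another at 91.7 to 95.4% of aligned coding positions, with Taar7e and Taar7f the closest pair. Taar6 was identical to them at 68.9 to 70.2%. Of all stretches of 100 coding bases, those found in no other annotated transcript made up 100% in Taar6, 90.4% in Taar7a, 89.1% in Taar7d, 82.9% in Taar7b, 67.9% in Taar7f and 66.8% in Taar7e. Taar7e shared 29.4% of its stretches with Taar7f and 13.4% with Taar7c-ps. Reads that mapped to more than one place, 16.9 to 19.4% of the reads accounted for in each library, were left out of the gene counts. Counts of the Taar7 genes therefore leave out reads that map equally well to several copies. How a read with an error was placed between near-identical copies is uncertain, so these counts are not strict lower limits.

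**Figure D1:**
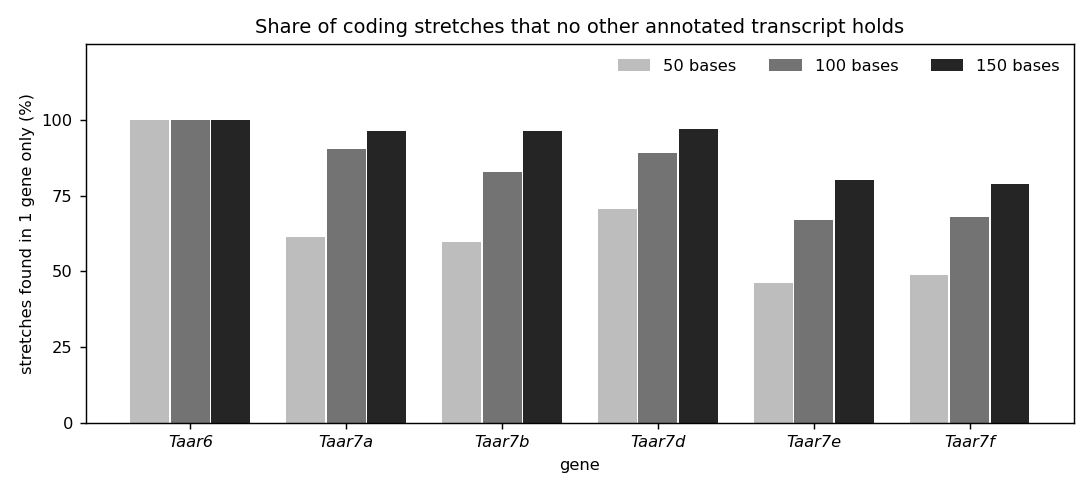
Bars give, for each of the 6 genes on the x axis, the percentage of coding stretches of 50, 100 or 150 bases found in no other annotated transcript. Taar6 is at 99.9% or above at each length, while Taar7e and Taar7f are the lowest, at 46.1% and 48.7% for 50 bases and at 80.1% and 78.9% for 150 bases.

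Each library had 24583906 to 32631951 reads in genes. Levels are given in CPM, the reads of a gene scaled to a common library size by TMM, a correction for library composition, and 3 reads, the limit that a count of 0 allows, correspond to 0.0916 to 0.122 CPM. Such limits cover counting error only. Receptors and the channel Trpc2 of vomeronasal neurons, which sense pheromones in an organ beside the MOE, set 3 libraries apart. This list of 331 genes summed to 67.9 CPM in het replicate 1, 120 CPM in homo replicate 2 and 69.5 CPM in homo replicate 3, against 14.6 to 17.3 CPM in the other 6. Of its 179 genes tested, edgeR called 0 between homo and WT mice, with 118 at an unadjusted p under 0.05, and DESeq2 without its filter on mean counts called 2, Vmn1r32 and Vmn2r1. Markers of mature OSNs (Omp, Gnal, Adcy3 and 7 more) were abundant in every library. They summed to 8256 to 8331 CPM in WT, 8329 to 8908 CPM in het and 8506 to 9164 CPM in homo libraries. The homo libraries thus lay above the WT libraries, as in 7.46% of all single genes. None of these 10 markers was called in any comparison by edgeR or DESeq2. At an unadjusted p under 0.05 were 3, 0 and 1 of them in homo against WT, het against WT and homo against het mice. In the same order, such a p was found in 9.26%, 3.25% and 10.4% of all genes tested.

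Between homo and WT mice, 3 of the 6 genes fell and 1 rose. These were Taar6, Taar7a and Taar7b, the members nearest the deletion, and Taar7e, respectively. The calls are from edgeR's quasi-likelihood test fitted on 20213 genes, at a Benjamini-Hochberg adjusted p under 0.05. Over all genes tested, 0.0495% were called, 0.0445% lower and 0.00495% higher. The median log2 fold change was -0.91 over the 6 members and 0.00 over all genes tested. In all 6 members the 3 homo libraries lay entirely outside the range of the 3 WT libraries, below it in 5 and above it in Taar7e, while over all genes 7.95% lay below, 7.46% above and 15.4% either way.

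**Figure D2:**
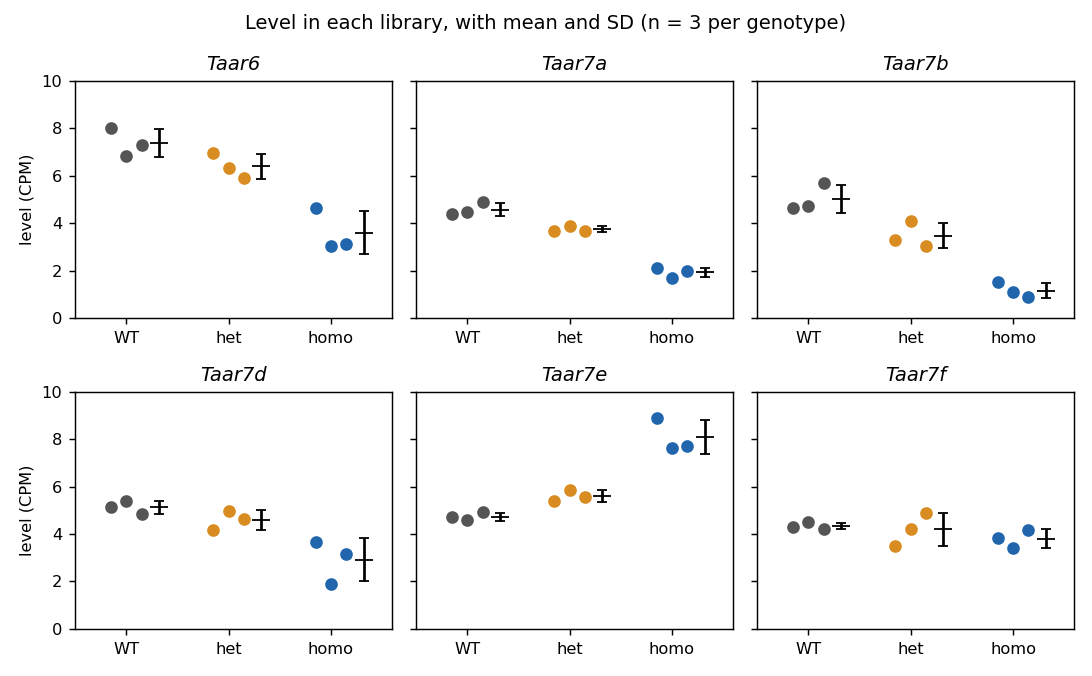
Points give the level of each gene in CPM (y axis) in each library, grouped by genotype (x axis), with the mean and SD of 3 libraries beside them. Homo libraries lie below the WT libraries in every panel except Taar7e, where they reach 7.64 to 8.91 CPM, and Taar7b is the lowest of the 6 in homo mice at 0.890 to 1.51 CPM.

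Taar7b encodes a receptor of the Taar7 subfamily. Its level was 4.66, 4.73 and 5.68 CPM in the WT libraries, 3.31, 4.08 and 3.04 CPM in the het libraries, and 1.51, 1.10 and 0.890 CPM in the homo libraries. No library of one genotype overlapped those of another. Mean levels were 5.03 ± 0.571 CPM in WT, 3.48 ± 0.539 CPM in het and 1.17 ± 0.318 CPM in homo mice (SD, n = 3 each), so homo mice kept 23.2% of the WT mean. The log2 fold change between homo and WT mice was -2.09 (SE 0.20, 95% interval -2.52 to -1.66, edgeR adjusted p = 0.000119), a 4.26-fold lower level. It rests on 93 reads in the homo and 418 reads in the WT libraries. Over the 9 fits that each left out 1 library it stayed between -2.33 and -1.93 and was called in all 9.

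Taar7a, the next gene toward the deletion, was at 4.38, 4.46 and 4.91 CPM in the WT libraries, 3.67, 3.89 and 3.69 CPM in the het libraries and 2.11, 1.71 and 1.97 CPM in the homo libraries. The 3 genotypes again formed separate groups. In homo against WT mice the log2 fold change was -1.24 (SE 0.15, 95% interval -1.56 to -0.92, edgeR adjusted p = 0.00164), leaving 42.1% of the WT mean. It ranged from -1.31 to -1.16 when each library was left out in turn and was called in all 9 fits.

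Taar6 is the only member outside the Taar7 subfamily, and its reads are the least ambiguous. It was at 8.03, 6.84 and 7.31 CPM in the WT libraries, 6.98, 6.31 and 5.92 CPM in the het libraries and 4.65, 3.05 and 3.13 CPM in the homo libraries. The WT and het libraries overlapped, and the homo libraries lay below both. From WT to homo mice the log2 fold change was -1.02 (SE 0.16, edgeR adjusted p = 0.0198), with homo mice at 48.8% of the WT mean. This call was lost when WT replicate 1, 2 or 3 (adjusted p = 0.173, 0.0557 and 0.072) or homo replicate 2 or 3 (adjusted p = 0.133 and 0.172) was left out, at log2 fold changes between -1.08 and -0.91.

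Taar7e was the only gene that edgeR called higher in homo than in WT mice among all 20213 tested, while DESeq2 also called others, such as Atf5. Its level was 4.70, 4.58 and 4.91 CPM in the WT libraries, 5.38, 5.86 and 5.55 CPM in the het libraries and 8.91, 7.64 and 7.70 CPM in the homo libraries. The 3 genotypes did not overlap, in the reverse order of Taar7a and Taar7b. Homo mice exceeded WT mice by a log2 fold change of 0.78 (SE 0.12, 95% interval 0.52 to 1.03, edgeR adjusted p = 0.0176), which is 1.71-fold. The direction was kept in all 9 fits without 1 library, at 0.70 to 0.82, but the adjusted p was 0.135, 0.171 and 0.0609 without WT replicates 1, 2 and 3, and 0.0976 and 0.0537 without homo replicates 1 and 3. Reads that map equally well to Taar7e and to Taar7f or Taar7c-ps do not enter this count, and whether reads were misplaced between these copies was not tested.

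Taar7d did not pass the test. It was at 5.14, 5.41 and 4.83 CPM in the WT libraries, 4.17, 4.99 and 4.63 CPM in the het libraries and 3.66, 1.91 and 3.17 CPM in the homo libraries. The homo libraries were the lowest, and they were also the most scattered, with an SD of 0.905 CPM against 0.287 CPM in WT. Between homo and WT mice the log2 fold change was -0.81 (SE 0.19, 95% interval -1.20 to -0.41, unadjusted p = 0.000602, edgeR adjusted p = 0.237).

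Taar7f, the member farthest from the deletion, was at 4.30, 4.49 and 4.21 CPM in the WT libraries, 3.49, 4.20 and 4.90 CPM in the het libraries and 3.84, 3.41 and 4.18 CPM in the homo libraries. The homo libraries were just below the WT libraries, and the het libraries spanned both. Its log2 fold change between homo and WT mice was -0.19 (SE 0.15, edgeR adjusted p = 0.764), with a 95% interval from -0.51 to 0.14 that leaves room for a moderate decrease.

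**Figure D3:**
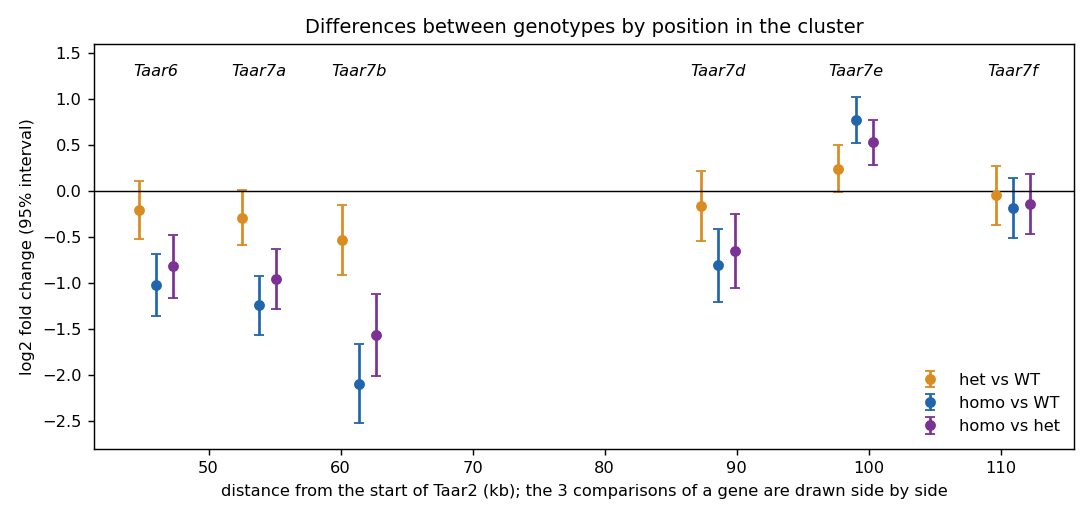
Points give the log2 fold change of each gene (y axis, bars are 95% intervals) against its distance in kb from the start of Taar2 (x axis) for the 3 comparisons, drawn side by side. From Taar6 at 46.0 kb to Taar7b at 61.4 kb the homo against WT values go from -1.02 to -2.09, then lie at -0.81 for Taar7d, 0.78 for Taar7e and -0.19 for Taar7f.

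Levels with 1 intact copy of the enhancer were measured in the het mice. None of the 6 genes was called between het and WT mice by edgeR, against 0.00495% of all genes tested, and DESeq2 called 0 with and without its filter on mean counts. Against 3.25% of all genes tested, Taar7b alone of the 6 had an unadjusted p under 0.05. Its log2 fold change was -0.53 (SE 0.18, 95% interval -0.91 to -0.16, edgeR adjusted p = 1), with a het mean at 69.2% of WT. In the others it was -0.29 for Taar7a (95% interval -0.59 to 0.01), -0.20 for Taar6 (-0.52 to 0.11), -0.16 for Taar7d (-0.54 to 0.22), 0.24 for Taar7e (-0.01 to 0.50) and -0.05 for Taar7f (-0.37 to 0.27). The het libraries did not overlap the WT libraries in Taar7a and Taar7b, where they were lower, and in Taar7e, where they were higher, 3 of 6 members against 8.68% of all genes (4.32% lower and 4.36% higher). The median over the members was -0.18 on the log2 scale, and 0.00 over all genes tested. For Taar6, Taar7d and Taar7f, the lower ends of -0.52, -0.54 and -0.37 leave room for a moderate decrease. Their upper ends of 0.11, 0.22 and 0.27 leave room for a smaller increase.

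Set against the midpoint between the WT and homo means, the het mean lay on the WT side for all 6 genes. All 3 het libraries were on that side for Taar6, Taar7a, Taar7d and Taar7e, and 2 of 3 for Taar7b and Taar7f. The midpoint was 5.50 CPM for Taar6, where the het mean was 6.40 CPM, and 3.10 CPM for Taar7b, where it was 3.48 CPM. For Taar7e the midpoint was 6.41 CPM and the het mean 5.60 CPM. Taar7d and Taar7f were not called between homo and WT mice. For Taar7f the WT and homo means were close, at 4.33 and 3.81 CPM, so its midpoint separates little. These positions are a description, with no test and no share over all genes.

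Homo and het mice were compared as well, sharing their homo libraries with the first comparison and their het libraries with the second. Taar7a (log2 fold change -0.95, SE 0.15, edgeR adjusted p = 0.0292) and Taar7b (-1.56, SE 0.21, edgeR adjusted p = 0.00613) fell, 2 of the 6 members against 0.114% of all genes called, 0.0989% lower and 0.0148% higher. The other members were not called, at -0.82 for Taar6 (SE 0.16, adjusted p = 0.076), -0.65 for Taar7d (SE 0.19, adjusted p = 0.252), 0.53 for Taar7e (SE 0.12, adjusted p = 0.115) and -0.14 for Taar7f (SE 0.15, adjusted p = 0.804). The homo libraries were outside the het range in 5 of 6 members, all but Taar7f, against 14.1% of all genes (7.67% lower and 6.41% higher). The call for Taar7a was lost in 7 of the 9 fits without 1 library, with adjusted p up to 0.145, and it remained without WT replicate 3 and without het replicate 3, while Taar7b was called in all 9. Taar7d ranged from -0.85 without homo replicate 1 to -0.42 without homo replicate 2, and Taar7f from -0.26 without het replicate 1 to -0.01 without het replicate 3.

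Of the 3 libraries with vomeronasal reads, 2 are homo libraries. Without het replicate 1 and homo replicates 2 and 3, a single homo library remained, which was assumed to vary like the libraries of the other genotypes. In that fit edgeR called none of the 6 members against WT or against het mice. The log2 fold changes between homo and WT mice were then -1.73 for Taar7b (adjusted p = 0.0602), -1.11 for Taar7a (adjusted p = 0.47), -0.67 for Taar6 (adjusted p = 0.925), -0.49 for Taar7d (adjusted p = 0.925), 0.91 for Taar7e (adjusted p = 0.17) and -0.18 for Taar7f (adjusted p = 0.946). The direction was the same in all 6 genes, the value of Taar7e was larger and the values of Taar6 and Taar7d were smaller by more than 1.5 times. The loss of calls cannot be told apart from the loss of homo libraries, and the part of the vomeronasal reads was not tested. Some Taar genes outside the members stayed called against WT and against het mice in that fit.

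A ratio of members within a library does not depend on how libraries are scaled. For the 15 pairs of members, the log2 ratio of reads was compared over the 3 genotypes with a two-sided exact permutation test of the F statistic over all 280 partitions of the 9 libraries, whose smallest possible p is 0.00357. The ratio differed among genotypes in 10 of 15 pairs at a Benjamini-Hochberg adjusted p under 0.05 over the pairs, including all 5 pairs with Taar7e. The members were chosen with earlier results of these data known, so these p-values are not independent of that choice.

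The widest separation was between Taar7b and Taar7e. Their log2 ratio was -0.01, 0.05 and 0.21 in the WT libraries, -0.70, -0.52 and -0.86 in the het libraries and -2.54, -2.78 and -3.09 in the homo libraries. Reads of the 2 genes were nearly equal in WT mice, and Taar7e exceeded Taar7b in every het and homo library. From WT to homo mice the mean log2 ratio fell by 2.88, a 7.38-fold change of the ratio (exact permutation test over 3 genotypes, p = 0.00357, adjusted p = 0.00765).

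The closest pair in coding sequence and the closest pair in upstream sequence also parted. The log2 ratio of Taar7e to Taar7f, the closest pair in coding sequence, was 0.13 ± 0.10 in WT, 0.43 ± 0.23 in het and 1.08 ± 0.18 in homo libraries (SD, n = 3 each; exact permutation test, p = 0.00714, adjusted p = 0.0119). The log2 ratio of Taar7d to Taar7e, the pair most alike before the start codon, went from 0.11 ± 0.13 in WT over -0.29 ± 0.07 in het to -1.51 ± 0.41 in homo libraries (SD, n = 3 each; exact permutation test, p = 0.00357, adjusted p = 0.00765). Taar7a and Taar7b, which stand next to each other on opposite strands, differed as well, with a mean log2 ratio of -0.13 in WT, 0.12 in het and 0.75 in homo libraries (exact permutation test, p = 0.00357, adjusted p = 0.00765).

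The 5 pairs without a call were Taar6 with Taar7a, Taar7d and Taar7f, and Taar7d with Taar7a and Taar7f. For Taar6 and Taar7a the mean log2 ratio was 0.69 ± 0.16 in WT, 0.77 ± 0.14 in het and 0.87 ± 0.24 in homo libraries, which overlapped throughout (SD, n = 3 each; exact permutation test, p = 0.525, adjusted p = 0.562). For Taar6 and Taar7f the ratio fell by 0.87 on the log2 scale from WT to homo mice with no overlap of libraries, and the adjusted p was 0.0633 (exact permutation test). Over the 15 pairs, WT and homo libraries did not overlap in 12, homo and het libraries in 10, and het and WT libraries in 7. Over all 204272578 pairs of genes tested, these shares were 14.2%, 12.7% and 8.98%. The 15 pairs share 6 genes and are not independent, and the exact test was not run on other pairs.

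**Figure D4:**
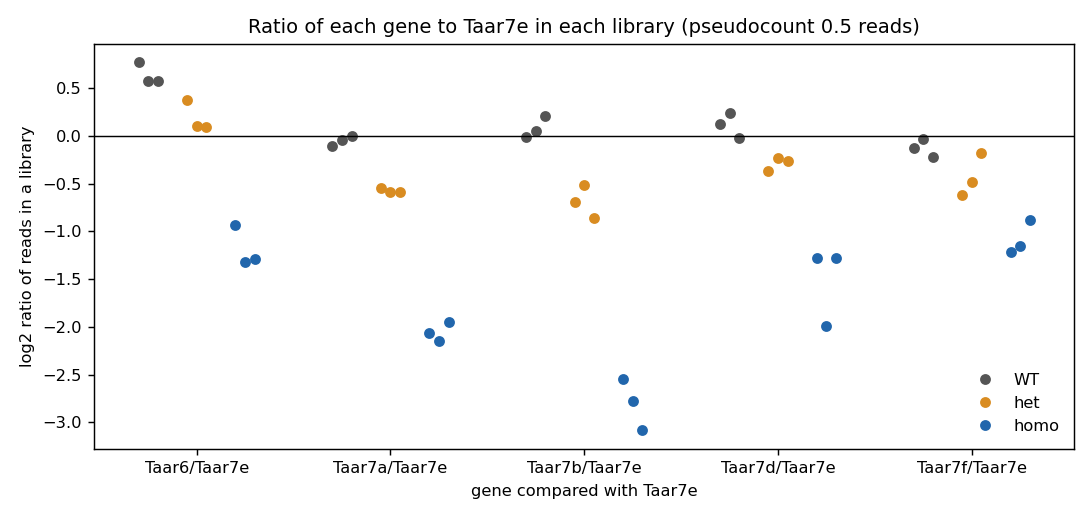
Points give the log2 ratio of the reads of each other member to those of Taar7e in each library (y axis), by gene (x axis) and genotype (colour). The homo libraries lie below the het and WT libraries in all 5 ratios, down to -3.09 for Taar7b, and the het libraries overlap the WT libraries only in the ratio of Taar7f.

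The summed level of the 6 genes changed by a smaller percentage than the level of any single member but Taar7f. It was 31.2, 30.5 and 31.9 CPM in the WT libraries, 27.0, 29.3 and 27.7 CPM in the het libraries and 24.7, 18.8 and 21.05 CPM in the homo libraries. The genotypes did not overlap in this sum. The mean changed by -31.0% from WT to homo mice, by -10.2% from WT to het mice and by -23.2% from het to homo mice. Without Taar7e, the change from WT to homo mice was -49.2%.

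The share of each gene in the reads of the 6 differed between genotypes. Taar7e held 15.1, 15.02 and 15.4% of their reads in the WT libraries, 19.9, 20.0 and 20.0% in the het libraries and 36.1, 40.6 and 36.6% in the homo libraries. The share of Taar7b went from a mean of 16.1% in WT to 12.4% in het and 5.40% in homo mice, and that of Taar7a from 14.7% over 13.4% to 9.002%. The share of Taar6 was 23.7% in WT, 22.9% in het and 16.6% in homo mice, while Taar7d went from 16.5% to 13.4% and Taar7f from 13.9% to 17.8% between WT and homo mice. Shares sum to 100% in each library, so a larger share of one gene makes those of the others smaller.

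**Figure D5:**
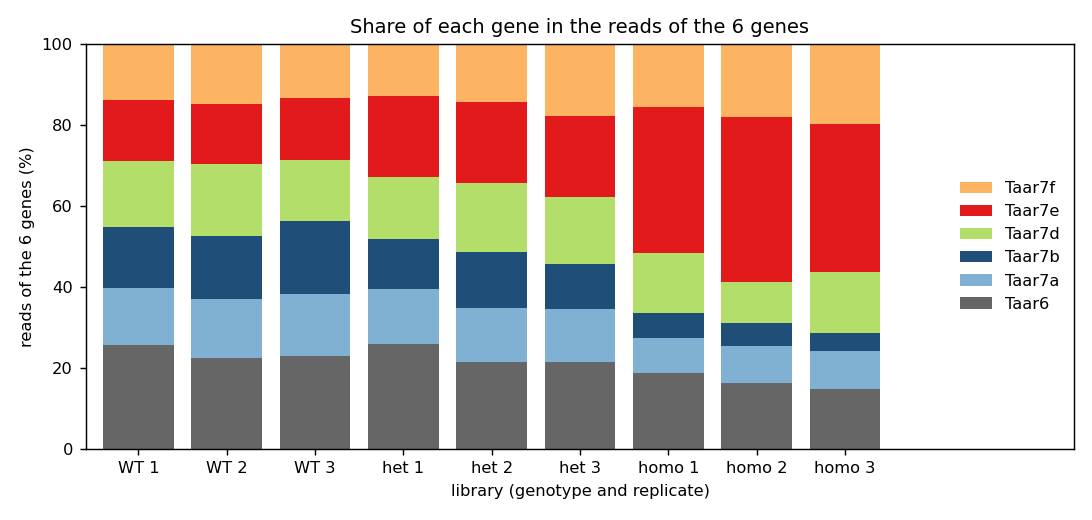
Stacked bars give each gene's percentage of the reads of the 6 genes (y axis) in each of the 9 libraries (x axis). The share of Taar7e widens from 15.02 to 15.4% in WT to 36.1 to 40.6% in homo libraries, and that of Taar7b narrows from 14.9 to 17.8% to 4.23 to 6.13%.

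The order of the 6 genes by level changed with genotype. Per kb of coding sequence, Taar6 led in WT mice at a mean of 7.12 CPM per kb, apart from the other genes, which lay between 4.76 (Taar7d) and 4.02 (Taar7f) with Taar7b, Taar7e and Taar7a in between, each overlapping its neighbours in the order. In het mice the order was Taar6 (6.17), Taar7e (5.195), Taar7d (4.27), Taar7f (3.90), Taar7a (3.48) and Taar7b (3.23 CPM per kb), and Taar6 and Taar7e did not overlap each other or Taar7d. In homo mice Taar7e led at 7.51 CPM per kb, apart from Taar7f (3.54), Taar6 (3.48) and Taar7d (2.71), which overlapped, and from Taar7a (1.79), which overlapped Taar7d and lay above Taar7b (1.08).

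The part of a gene that can be counted matters for this order. Per kb of coding sequence that is unique over 100 bases, the WT order was Taar6 (7.87), Taar7e (7.24), Taar7f (6.53), Taar7b (6.20), Taar7d (5.89) and Taar7a (5.18 CPM per unique kb), and Taar6 and Taar7e overlapped. On this scale Taar7e led in het mice (8.57) as well as in homo mice (12.4 CPM per unique kb), and Taar7b stayed lowest in homo mice (1.44 CPM per unique kb). The read length is not stated, so the proper stretch length is unknown.

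The olfactory Taar genes on both sides of the 6 differed in how much remained in homo mice. Taar5, the nearest neighbour toward the deletion, had a mean of 3.03 ± 0.460 CPM in WT and 1.62 ± 0.399 CPM in het mice (SD, n = 3 each) and 0 reads in each homo library. Taar8a, the nearest on the far side, was low everywhere, at 0.209 ± 0.0656 CPM in WT and 0.179 ± 0.0431 CPM in het mice (SD, n = 3 each), with 0 reads in each homo library. Taar8b, also on the far side, was at a mean of 0.796 CPM in WT, 0.559 CPM in het and 0.275 CPM in homo mice (log2 fold change between homo and WT mice -1.51, SE 0.50, edgeR adjusted p = 0.409). Taar9, the last gene of the cluster, dropped from 2.82 ± 0.239 to 0.167 ± 0.0537 CPM between WT and homo mice (SD, n = 3 each; log2 fold change -4.05, edgeR adjusted p = 7.5e-06). Of the 9 Taar genes outside the members, 8 were tested and 5 fell between homo and WT mice (Taar2, Taar3, Taar4, Taar5 and Taar9), and 0 rose. Between het and WT mice 0 were called by edgeR or DESeq2. In that comparison 3 had an unadjusted p under 0.05, against 3.25% of all genes tested.

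The 6 genes made up nearly all olfactory Taar reads in homo mice. They held 69.4, 68.4 and 71.2% of the reads of the 14 olfactory Taar genes in the WT libraries, 71.8, 75.6 and 76.5% in the het libraries and 97.8, 97.7 and 97.3% in the homo libraries. The mean share was 27.9 percentage points higher in homo than in WT mice. Of 1750 olfactory Taar reads in the 3 homo libraries, 1708 were of the 6 genes and 640 of Taar7e alone.

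Genes that work with the receptors were examined as lists. The list of transduction and trafficking genes contains all 10 mature OSN markers given above, so its values are not separate from theirs. Of 15 genes of olfactory transduction and receptor trafficking, among them Gnal, the G protein alpha subunit of OSNs, Adcy3, the adenylyl cyclase, and Rtp1 and Rtp2, which carry odorant receptors to the surface, edgeR and DESeq2 called 0 in any comparison, with log2 fold changes of -0.13 to 0.14 and 5 at an unadjusted p under 0.05 between homo and WT mice. Of 11 genes tied to receptor choice, such as the transcription factors Lhx2 and Ebf1 and the cofactor Ldb1, edgeR called 0 in any comparison, with 5 at an unadjusted p under 0.05 between homo and WT mice and log2 fold changes of 0.03 to 0.21. Over all genes tested, 9.26% had such a p. The summed level of these 11 genes was 4085 to 4184 CPM in WT, 4094 to 4411 CPM in het and 4451 to 4550 CPM in homo libraries. In the same order, that of the 15 transduction genes was 10864 to 10946, 10957 to 11611 and 11341 to 11987 CPM. In both lists WT and homo libraries did not overlap, as in 15.4% of all single genes. DESeq2 called 1 of the 11 receptor choice genes between homo and WT mice. It was Atf5, a transcription factor of the unfolded protein response (log2 fold change 0.21, SE 0.05, DESeq2 adjusted p = 0.0093). Of 1088 odorant receptor genes, edgeR and DESeq2 called 0 in any comparison. At an unadjusted p under 0.05 were 56 between homo and WT, 31 between het and WT and 58 between homo and het mice. In the same order, such a p was found in 9.26%, 3.25% and 10.4% of all genes tested. Odorant receptor genes summed to 3086 to 3203 CPM in WT, 3028 to 3304 CPM in het and 3211 to 3351 CPM in homo libraries. WT and homo libraries did not overlap, as in 15.4% of all single genes, and the het libraries overlapped both. With odorant receptor counts as library size, 4 of the 6 Taar members were called between homo and WT mice, as with TMM.

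Markers of other cells and zones were summed in each library. Dorsal zone markers (Nqo1 and Acsm4) summed to 556 to 637 CPM in WT and 542 to 594 CPM in homo libraries, and ventral zone markers (Ncam2 and Nrp2) to 356 to 375 and 365 to 379 CPM. None of these 4 genes was called by edgeR or DESeq2 in any comparison. Between homo and WT mice 1 had an unadjusted p under 0.05, against 9.26% of all genes tested. The dorsal markers went in opposite directions there, at log2 fold changes of 0.08 for Nqo1 and -0.21 for Acsm4. Of the 6 sustentacular cell markers, Ugt2a1, an enzyme of odorant clearance, was lower in homo than in het mice (log2 fold change -0.29, SE 0.05, edgeR adjusted p = 0.0383). Over all genes tested, edgeR called 0.114% between these genotypes. DESeq2 also called Ugt2a1 between homo and WT mice. The summed sustentacular markers were 5836 to 6284 CPM in homo, 6027 to 6911 CPM in het and 6346 to 6761 CPM in WT libraries. Respiratory ciliated cell markers summed to 468 to 526 CPM in WT, 408 to 569 CPM in het and 403 to 464 CPM in homo libraries. Between homo and WT mice their log2 fold changes were -0.65 (Dnah5), -0.44 (Dnah9), -0.08 (Foxj1), -0.03 (Rsph1) and -0.01 (Ccdc39). Immature OSN markers summed to 2498 to 2607 CPM in WT, 2513 to 2665 CPM in het and 2681 to 2699 CPM in homo libraries. In the sustentacular, respiratory ciliated and immature OSN lists WT and homo libraries did not overlap, as in 15.4% of all single genes. Globose basal cell markers summed to 428 to 471 and 413 to 447 CPM, and horizontal basal cell markers to 116 to 132 and 111 to 122 CPM, in WT and homo libraries. By edgeR 0 of the 5 respiratory, 6 immature OSN, 5 globose basal and 3 horizontal basal cell markers were called between homo and WT mice. DESeq2 called 0 as well. At an unadjusted p under 0.05 were 2, 1, 1 and 1 of them, against 9.26% of all genes tested. The part of these marker differences in the levels of the 6 genes was not tested.

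Genes with the most similar pattern were sought by the distance between their pairs of log2 fold changes (het against WT and homo against WT) among 17176 genes outside the members, each pair resting on the same 9 libraries. Taar7b had no gene within a distance of 0.1, and its nearest were Taar8b (0.585) and Klk1 (0.730). The nearest to Taar7e were Gm7534 (0.0104) and Ovol3 (0.0161), with 11 genes within 0.1. For Taar6 they were Bpifb9b (0.0618) and 4932411E22Rik (0.103), for Taar7a Nkain3 (0.0605) and 4921506M07Rik (0.144), and for Taar7d Slc16a12 (0.0398) and Bpifb9a (0.0577). Taar7f had 1510 genes within 0.1, led by Prkca and Fzd4. None of these 12 genes was itself called between homo and WT mice by edgeR, at adjusted p of 0.266 to 0.864.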

How the data were processed

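RNA-seq was performed on whole MOE tissue of 9 mice, and the genotype and replicate number of each library were taken from its title. The study prepared polyA-selected strand-specific libraries, and the submitters' processing notes name Trimmomatic 0.36, HISAT2 2.1.0, HTSeq 0.6.1p1, DESeq2 1.20.0 and the build mm10 (GRCm38). The study's methods name another counter, and the gene annotation, strand setting and read length are not given in the sources used here. The deposited table holds raw counts of reads per gene made by the authors. Its summary rows (21.6 to 22.4% of reads in no gene, 1.29 to 1.35% ambiguous, 16.9 to 19.4% not unique) did not enter library sizes or tests. A second table, counts divided by size factors, was not used here.

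Genes with at least 10 counts summed over all libraries (20213 genes) were fitted with edgeR 4.0.16 in R 4.3.3 (TMM, quasi-likelihood test, genotype only, all 9 libraries), with Benjamini-Hochberg adjustment over all of them and a threshold of 0.05. SE is the log2 fold change divided by the square root of F. The pipeline was tested on simulated data. Pair ratios used a pseudocount of 0.5 reads. Sequence identity came from global alignments (Biopython 1.88), and shared stretches were sought in all GENCODE M21 transcripts on both strands.

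Named genes were the 6 members, the 2 genes nearest to each in pattern among genes with a mean of at least 0.5 CPM, Taar5, Taar8a and Taar9, and any gene called within the lists of other Taar, transduction, receptor choice and marker genes. Atf5, Taar8b, Vmn1r32 and Vmn2r1 were named after their values were seen. The members, lists, tests and alternatives were chosen with earlier results of these data known. Alternatives were other scalings (DESeq2 size factors, raw library sizes, odorant receptor counts), DESeq2 1.42.0, other count filters, only the 6 libraries compared, the replicate number as a block, and leaving out libraries. Libraries of a genotype differed by more than sampling noise (chi-square divided by its degrees of freedom, 4.34 or more in every pair), so each was counted as 1 replicate. They are separate mice according to the study.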

Additional observations from a re-analysis of the deposited data

How the results depend on the processing

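Directions of the 6 genes were kept under every alternative run except for Taar7f between het and WT mice, which went from -0.05 to 0.0714 without the 3 libraries with vomeronasal reads and ranged from -0.179 to 0.0709 when 1 library was left out, the highest without het replicate 1. Without those 3 libraries 1 homo library remained, assumed to vary like the others, and 0 members were called in homo against WT and 0 in homo against het mice, at log2 fold changes against WT of -1.73 (Taar7b), -1.11 (Taar7a) and 0.91 (Taar7e). Of the 15 pair ratios 6 were then called, at a smallest possible p that is higher with fewer libraries. With only the 6 libraries compared, 1 member was called between homo and het mice. Leaving out 1 library gave 2 to 4 members called between homo and WT mice, 1 to 3 between homo and het mice, 0 in each fit between het and WT mice, and 9 to 12 pairs. The change of the summed level then ranged from -36.1 to -26.7% (homo against WT), -12.3 to -8.51% (het against WT) and -28.9 to -18.4% (homo against het), and the share of olfactory Taar reads rose by 27.3 to 28.7 percentage points.

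Replicate numbers gave no consistent sign of pairs. Same-numbered libraries of different genotypes correlated at -0.196 to 0.364, the highest being homo and het replicates 2 (0.305) and 3 (0.364). In 7 of 18 combinations of a library with another genotype the best correlation was with the library of its own number. With 3 libraries per genotype, this check cannot settle whether libraries were paired. With the replicate block, 4, 0 and 3 members were called (homo against WT, het against WT, homo against het), the addition being Taar6 at an adjusted p of 0.0392. The summed level changed by the same -31.0, -10.2 and -23.2% under the block, and an exact sign-flip test over 3 pairs cannot go below p = 0.25.

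Taar6 was also called between homo and het mice with no filter on low counts (adjusted p = 0.0354), with odorant receptor counts as library size (0.0335) and by DESeq2 without independent filtering (0.0039). DESeq2 with default settings gave the 6 genes no adjusted p against homo mice because of its limit on mean counts, so no value is given. Over all genes, edgeR called 10, 1 and 23 (homo against WT, het against WT, homo against het), DESeq2 63, 3 and 130, DESeq2 without independent filtering 54, 3 and 126, edgeR with no filter 13, 1 and 50, with the block 12, 0 and 41, with only the 6 libraries compared 47, 0 and 11, and without het replicate 3 33, 0 and 190. The cause was not tested. The lowest member counts, 23 reads of Taar7b in a homo library, limit the precision of its level there.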
